A study of Homo sapiens with 8 samples.

Results

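CAL27 and A431 are established human squamous carcinoma lines, CAL27 from the tongue and A431 from the skin. The comparison took the 2 CAL27 and the 2 A431 libraries that had received only the solvent DMSO, 4 of the 8 libraries of the series, and covered every gene. The other 4 libraries came from the same lines after a NEDD8 inhibitor, labelled NEDD8i, and shared in the estimate of the spread. Cells of all 4 groups were grown below confluence, were given fresh medium with DMSO or the inhibitor and were collected at 16 h. RNA was read from its 3' ends (QuantSeq forward libraries), so that a gene's value comes mainly from the end of its transcript. Each group was 1 cell line under 1 treatment with no altered gene, and the labels do not say whether the 2 replicates came from separate cultures. The p-values therefore measure the spread between libraries, which may be technical. With 1 line for each site, the tissue of origin cannot be told apart from anything else that sets these 2 lines apart.

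Stratified squamous epithelium is held by p63, the transcription factor of basal keratinocytes, and by the keratin pair KRT5 and KRT14. In the suprabasal layers, skin makes a cornified envelope, whereas moist oral epithelium makes KRT4 and KRT13. A431 is widely used because it carries very many EGF receptors. CAL27 is a common model of oral squamous carcinoma.

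The 4 libraries held between 50713295 and 62509817 counts. Each mate of a read pair had been counted by itself, and between 70.4% and 76.7% of counts from 1 to 40 were even numbers. Replicates of a group correlated at r = 0.9807 in A431 and 0.9863 in CAL27 on log2 CPM (counts of a gene per 1000000 counts of the library, after TMM scaling) across genes, which are not independent replicates. Of 9 fibroblast markers 6 stayed under 1 CPM in all 4 libraries, with PDGFRA and THY1 at 0. Of 10 leukocyte markers 8 stayed under 1 CPM, with PTPRC, MS4A1, CD68 and SPI1 among those at 0 in all 4 libraries. The 3 that could be tested, CD14, CSF1R and ITGAM, were higher in CAL27. The call of CSF1R was lost with DESeq2 (adjusted p = 0.197), without A431 replicate 1 (0.0505) and without CAL27 replicate 1 (0.0788), and that of ITGAM without CAL27 replicate 2 (0.07). The summed leukocyte markers stood at 6.78 and 6.81 CPM in A431 and 18.2 and 19.8 CPM in CAL27. Summed melanocyte markers stood at 53.1 and 55.7 CPM in A431 and 4.06 and 5.48 CPM in CAL27, with TYR and DCT at 0 in all 4 libraries. MITF carried nearly all of that sum (49.7 and 53.5 CPM in A431 and 2.85 and 3.57 CPM in CAL27).

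Of 61533 gene identifiers, 18738 had enough counts to be tested with edgeR's quasi-likelihood test and Benjamini-Hochberg adjustment. At an adjusted p under 0.05, 11045 genes (58.9%) were called, 5602 higher in CAL27 (29.9%) and 5443 lower in CAL27 (29%). At 2-fold or more, 2953 genes were higher (15.8%) and 2230 lower (11.9%). The median log2 difference over all tested genes was 0.05, and 0.13 when only total counts were used for scaling. Differences are given throughout as CAL27 minus A431, so that a negative log2 value means a higher level in A431. A share of called genes near 30% in each direction is thus the background against which the members of each gene list are read. Protein-coding genes were called more often, 9646 of 13694, so for lists of protein-coding genes this background is too low.

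Both lines carried the squamous programme. Looked up were 14 markers of squamous epithelium, some of them shared with other epithelia, such as CDH1, EPCAM and JUP. All 14 were well above 1 CPM in all 4 libraries, the lowest value being 137 CPM. The difference of 13 of them was at most 2.26-fold. TP63, the gene of p63, measured 279 and 288 CPM in A431 and 522 and 529 CPM in CAL27, and the groups did not overlap (log2 difference 0.89, SE 0.053, edgeR adjusted p = 1.35e-10), as was the case for 79.4% of all tested genes. KRT5 measured 4769 and 4742 CPM in A431 and 7761 and 7718 CPM in CAL27, and KRT14 2091 and 2058 CPM in A431 and 2491 and 2465 CPM in CAL27. Both basal keratins were thus higher in both CAL27 libraries, by 1.63-fold and 1.19-fold. The exception to the narrow range was KRT17, a keratin of injured and tumour epithelium, at 246 and 230.3 CPM in A431 and 1141 and 1154 CPM in CAL27 (log2 difference 2.27, SE 0.048, edgeR adjusted p = 1.59e-16). E-cadherin (CDH1) was close in the lines at 406 and 405 CPM in A431 and 342 and 354 CPM in CAL27, and the desmosome genes split: desmoplakin (DSP) was 2.26-fold higher in CAL27, whereas DSG3, PKP1 and JUP were 1.66-fold, 1.67-fold and 1.61-fold lower.

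Around this shared core, 19 basal keratinocyte genes split evenly, with 8 higher and 8 lower in CAL27. Integrin beta 1 (ITGB1), which anchors cells to matrix, measured 1244 and 1300.0 CPM in A431 and 254 and 257 CPM in CAL27 (log2 difference -2.32, SE 0.039, edgeR adjusted p = 1.06e-17). Both A431 libraries lay several times above both CAL27 libraries. KRT15, a keratin of quiet basal cells, was also lower in CAL27, by 3.46-fold. CAV1, CD44 and COL17A1 were higher in CAL27, by 2.35-fold, 2.23-fold and 1.78-fold. ITGB4 and ITGA6, the pair that forms the hemidesmosome receptor, stood close together in the lines. ITGB4 measured 689.9 and 698 CPM in A431 and 760.2 and 747 CPM in CAL27, a difference whose call was lost without either A431 library or CAL27 replicate 1 (adjusted p = 0.0653, 0.0548 and 0.11). ITGA6 measured 663 and 693 CPM in A431 and 657 and 682 CPM in CAL27 and was not called (edgeR adjusted p = 0.728).

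KRT4 and KRT13, keratins of moist epithelium, were higher in the skin line. KRT4 measured 764 and 755 CPM in A431 and 27 and 22.7 CPM in CAL27 (log2 difference -4.94, SE 0.074, edgeR adjusted p = 2.65e-18), and its partner KRT13 measured 673 and 676 CPM in A431 and 28.1 and 28.9 CPM in CAL27 (log2 difference -4.56, SE 0.078, edgeR adjusted p = 1.22e-17). Both A431 libraries were more than 20 times above both CAL27 libraries for each of the pair. Of the 23 tested members of the list of mucosal squamous genes, 13 were lower and 3 higher in CAL27, with a median log2 difference of -1.13. ECM1, a secreted matrix protein of suprabasal cells, was 53.8-fold lower and SCEL, an envelope precursor, 5.7-fold lower in CAL27. The members against this direction were RHCG, an ammonium transporter, at 1.42 and 1.4 CPM in A431 and 22.3 and 25.1 CPM in CAL27, and the membrane proteases TMPRSS11D and TMPRSS11E, of which TMPRSS11E was not called by DESeq2 (adjusted p = 0.0784). Of the list's other members, CRNN, KRT76 and MUC21 had too few counts to be tested in either line.

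Cornified genes went both ways, 14 of 30 higher and 11 lower. The kallikreins, serine proteases that act in shedding, showed it within 1 gene family. KLK5 measured 2.57 and 2.87 CPM in A431 and 235 and 242 CPM in CAL27 (log2 difference 6.46, SE 0.09, edgeR adjusted p = 9.73e-19), whereas KLK11 measured 155 and 152 CPM in A431 and 1.44 and 2.03 CPM in CAL27 (log2 difference -6.44, SE 0.11, edgeR adjusted p = 7.59e-18). KLK10, KLK6 and KLK7 were lower in CAL27 by 8.04-fold, 5.47-fold and 3.72-fold. The epidermal calcium-binding gene CALML5 measured 246 and 230.0 CPM in A431 and 1.22 and 1.24 CPM in CAL27, and involucrin (IVL), an envelope protein, measured 24.2 and 27.8 CPM in A431 and 2.19 and 2.54 CPM in CAL27. For both, all A431 values lay above all CAL27 values. Filaggrin (FLG) was barely seen, at 1.41 and 1.2 CPM in A431 and 0.945 and 1.42 CPM in CAL27, and was not called (edgeR adjusted p = 0.797).

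Glandular and simple-epithelial genes were mostly lower in CAL27, 13 of 20 against 4 higher. KRT81, PSCA, MUC20 and KRT7 were lower by 102-fold, 29.5-fold, 23.8-fold and 7.61-fold. The members higher in CAL27 included the mucins MUC1 (7.61 and 7.76 CPM in A431 and 41.8 and 42 CPM in CAL27) and MUC16 (12.8 and 8.07 CPM in A431 and 68.5 and 51.5 CPM in CAL27). KRT8 and KRT18, which form a pair in simple epithelium, did not move together: KRT8 was 1.3-fold lower and KRT18 1.6-fold higher in CAL27. Under total-count scaling the lists described up to here kept the sign of their medians, except the basal list, whose median of -0.02 became 0.06.

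**Figure D1:**
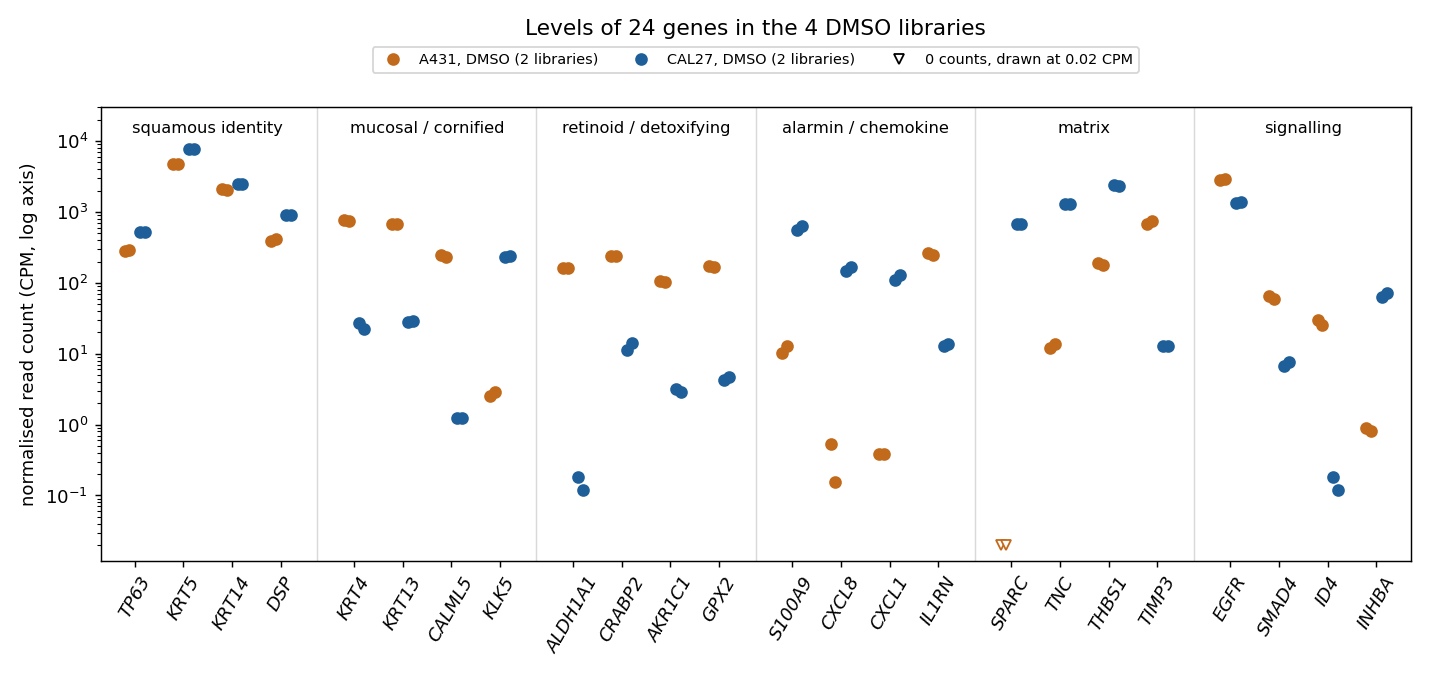
Normalised read counts (CPM, log axis) of 24 genes in the 2 A431 (orange) and 2 CAL27 (blue) DMSO libraries, 1 point per library. The squamous markers TP63, KRT5, KRT14 and DSP lie close together in both lines. The genes of the other 5 groups are separated by larger gaps in either direction, except EGFR, whose gap is near that of DSP. KRT17, the squamous marker that differed most, is not drawn.

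Transcription factors that pattern the face, mouth and limbs differed in both directions. Of 36 oral and craniofacial patterning factors tested, 18 were higher and 13 lower in CAL27, and 16 and 8 of them by 2-fold or more. EYA1, a transcriptional co-activator of early organ fields, had no count in A431 and 9.36 and 9.37 CPM in CAL27. IRX4 measured 0.0174 and 0.0776 CPM in A431 and 7.93 and 6.89 CPM in CAL27. SOX2, a factor of foregut and oral progenitors, measured 0.209 and 0.931 CPM in A431 and 6.15 and 6.84 CPM in CAL27. All 3 were thus near or under 1 CPM in the skin line. In the other direction, PAX9, a factor of tooth and tongue development, measured 104 and 102 CPM in A431 and 9.39 and 10.5 CPM in CAL27, and PITX1, a factor of hindlimb and first pharyngeal arch, 151 and 142 CPM in A431 and 66.6 and 65.4 CPM in CAL27. Both were thus higher in the skin line, by 10.3-fold and 2.22-fold.

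HOX genes, which record position along the body axis and are mostly silent in the jaw, were read in both lines: 33 of 39 were tested, 8 were higher and 15 lower in CAL27. HOXA9 measured 30.2 and 26.3 CPM in A431 and 0.37 and 0.424 CPM in CAL27 (log2 difference -6.14, SE 0.21, edgeR adjusted p = 1.03e-13). HOXA5 and HOXC13 were also lower in CAL27, by 5.08-fold and 3.48-fold. HOXD13, the factor of the most distal limb, was on the other side at 0.243 and 0.0388 CPM in A431 and 5.45 and 5.45 CPM in CAL27, as was HOXC9, 10.3-fold higher in CAL27 but not called by DESeq2 (adjusted p = 0.13). Neighbours within a HOX cluster overlap in places, with 19.2% of the exonic bases of HOXA9 under another gene. Reads that fit several genes were dropped, and the counting did not use strand.

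Among 36 transcription factors of squamous epithelium, 18 were higher and 10 lower in CAL27. GATA3, a factor of luminal and hair follicle lineages, measured 86 and 88.5 CPM in A431 and 3.74 and 3.5 CPM in CAL27 (log2 difference -4.59, SE 0.099, edgeR adjusted p = 1.69e-16). GRHL3, a factor of barrier formation and wound closure, measured 31.3 and 29.9 CPM in A431 and 1.82 and 0.969 CPM in CAL27 (log2 difference -4.49, SE 0.15, edgeR adjusted p = 9.31e-14), and OVOL1 and RUNX3 were 3.58-fold and 4.7-fold lower in CAL27. On the other side stood TP73, the relative of p63, at 8.03 and 7.62 CPM in A431 and 53.6 and 48.9 CPM in CAL27 (log2 difference 2.71, SE 0.16, edgeR adjusted p = 1.02e-10), and the epithelial ETS factor EHF at 287 and 302 CPM in A431 and 754 and 759 CPM in CAL27. Its relative ELF3 went the opposite way, at 312 and 303 CPM in A431 and 115 and 118 CPM in CAL27.

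A smaller set of genes was read in 1 line and had no count at all in the other. With at least 5 CPM as the mean of the line that had it, 56 genes (52 protein-coding) were at 0 in both A431 libraries and 22 (16 protein-coding) were at 0 in both CAL27 libraries. A count of 0 in both libraries allows up to 3 counts over the group, which is 0.0275 CPM in A431 and 0.025 CPM in CAL27. These floors cover counting error only and were set on mates counted singly, so that bounds in fragments would be lower. SPARC, a collagen-binding matrix glycoprotein usual in fibroblasts (chromosome 5, 151661096 to 151686915 of GRCh38, minus strand), measured 0 and 0 CPM in A431 and 672 and 671 CPM in CAL27, at least 24430.0-fold higher in CAL27. OLFM4, a secreted glycoprotein of crypt and glandular cells (chromosome 13, 53028813 to 53052057, plus strand), was at 0 in A431 and at 243 and 235 CPM in CAL27, at least 8683-fold higher. Further genes at 0 in A431 were the membrane-bound chemokine CX3CL1 (143 and 147 CPM in CAL27), MAGEA6 (108 and 118 CPM) and the mannosidase MAN1A1 (72.7 and 77 CPM). After these came SPART (42.1 and 42.3 CPM), AUTS2 (40.3 and 39.6 CPM), the phosphatase PTPRG (32.4 and 32.2 CPM), the receptor partner RAMP1 (29.9 and 33.8 CPM) and the carboxypeptidase-like CPVL (24.2 and 27.1 CPM). The protocadherin PCDHGB5 (19.2 and 20.2 CPM), whose cluster shares exons, and the oncofetal RNA-binding protein IGF2BP1 (19.7 and 18.2 CPM) ended the 15 largest differences towards CAL27. MAGEA3 and MAGEA6 are nearly identical in sequence, so that their reads could be split or lost between them.

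Genes at 0 in CAL27 were led by UGT1A10, a glucuronosyltransferase, at 129 and 113 CPM in A431, although 70.6% of its exonic bases are shared with other members of its locus. The phosphate transporter SLC20A2 stood at 100.4 and 101 CPM in A431 and at 0 in CAL27, at least 4030.0-fold lower in CAL27. Its neighbour on chromosome 8, SMIM19, was at 0 in CAL27 as well and at 16.5 and 17.3 CPM in A431. MPPED2 (78.5 and 81.8 CPM), the imprinted retroelement-derived gene PEG10 (40.9 and 41.6 CPM) and BPIFB1 (34.5 and 33 CPM) were the next 3 by reads. Further genes at 0 in CAL27 were GLB1L2 (17.9 and 22.1 CPM in A431), the blood group transferase ABO (14.1 and 16.9 CPM) and TMEM47 (16.3 and 14.3 CPM). CGREF1 (17.6 and 17.4 CPM in A431 and 0.037 and 0 CPM in CAL27) had 2 counts in CAL27, both in replicate 1. Near 0 in CAL27 were also ALDH1A1, described below, the basement membrane linker NID1, at 173 and 189 CPM in A431 and 0.37 and 0.0605 CPM in CAL27, and the diamine oxidase AOC1, at 153 and 139 CPM in A431 and 0.222 and 0.151 CPM in CAL27.

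Genes of mesenchyme and of the epithelial-mesenchymal transition leaned towards CAL27, with 16 of 28 higher, 7 lower and a median log2 difference of 0.98. Beside SPARC, N-cadherin (CDH2) was at 0 in A431 and at 31.6 and 34 CPM in CAL27, at least 1193-fold higher. Tenascin C (TNC), a matrix protein of wounds and tumours, measured 12.2 and 13.5 CPM in A431 and 1316 and 1318 CPM in CAL27 (log2 difference 6.68, SE 0.066, edgeR adjusted p = 1.85e-20). Thrombospondin 1 (THBS1) measured 193 and 178 CPM in A431 and 2367 and 2358 CPM in CAL27 (log2 difference 3.67, SE 0.049, edgeR adjusted p = 7.24e-19), and the collagen chain COL5A1 and the cross-linking enzyme LOX were 35.8-fold and 64-fold higher in CAL27. In each case both CAL27 libraries lay far above both A431 libraries. The members lower in CAL27 included MMP2, a gelatinase, at 68.4 and 64.2 CPM in A431 and 2.39 and 2.5 CPM in CAL27. Vimentin (VIM), the main mesenchymal filament, stayed low in both lines at 0.174 and 0.233 CPM in A431 and 1.59 and 0.681 CPM in CAL27, and its call was lost without CAL27 replicate 1 (adjusted p = 0.0798).

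Matrix proteases and their inhibitors went both ways. Of 46 proteases and inhibitors, 24 were higher and 21 lower in CAL27, and 1 was not called. The collagenase MMP1 measured 0.799 and 0.388 CPM in A431 and 81.1 and 89.6 CPM in CAL27 (log2 difference 7.14, SE 0.18, edgeR adjusted p = 1.79e-15), and the stromelysin MMP10 and the collagenase MMP13 were 115-fold and 11.7-fold higher in CAL27. Tissue plasminogen activator (PLAT) measured 3.02 and 4.93 CPM in A431 and 107 and 119 CPM in CAL27. TIMP3, a matrix-bound inhibitor of metalloproteases, was on the other side at 676 and 753 CPM in A431 and 12.9 and 13 CPM in CAL27 (log2 difference -5.79, SE 0.074, edgeR adjusted p = 4.24e-19). Among 54 integrins, laminins and collagens, 28 were higher and 18 lower in CAL27, with ITGA4 126-fold and COL16A1 11.7-fold higher and the secreted phosphoprotein SPP1 185-fold lower. Junction and desmosome genes were more often lower in CAL27, 23 of 42 against 7 higher, among them DSG2, CLDN7 and RAB25 by 3.1-fold, 3.12-fold and 3.46-fold. The connexin GJA1 was the largest exception, at 0 in A431 and 35 and 36.4 CPM in CAL27.

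EGFR measured 2807 and 2913 CPM in A431 and 1350.5 and 1376 CPM in CAL27 (log2 difference -1.07, SE 0.036, edgeR adjusted p = 7.85e-14), so that the level in A431 was 2.1-fold that of CAL27. ERBB2 and ERBB3, its dimer partners, were 2.56-fold and 2.42-fold lower in CAL27 too. The ligands differed: BTC measured 14.8 and 15.5 CPM in A431 and 1.93 and 2.39 CPM in CAL27, NRG1 17.7 and 16.7 CPM in A431 and 105 and 99 CPM in CAL27, and TGFA, AREG and HBEGF differed by 1.27-fold, 1.23-fold and 1.37-fold, all 3 higher in CAL27, although the AREG call was lost without A431 replicate 1 (adjusted p = 0.0968), without CAL27 replicate 2 (0.0669) and with the 4 DMSO libraries alone (0.054). EREG was not called (edgeR adjusted p = 0.347), and LRIG1, which brings about the decay of EGFR family receptors, measured 0.0695 and 0.272 CPM in A431 and 10.7 and 9.4 CPM in CAL27. In all, 7 of 16 members were higher and 6 lower.

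In the ERK cascade below the receptors, 21 of 32 feedback and early genes were higher in CAL27 and 9 lower (median log2 difference 0.67). The ERK inhibitor SPRY1 measured 0.313 and 0.272 CPM in A431 and 7.61 and 7.85 CPM in CAL27. Its relative SPRY2 measured 0.521 and 0.659 CPM in A431 and 7.1 and 6.23 CPM in CAL27. The phosphatases DUSP6, DUSP4 and DUSP5 were 1.9-fold, 1.9-fold and 2.05-fold higher, and FOSL1 and MYC 2.74-fold and 2.63-fold higher. Lower in CAL27 were CCND1, the cyclin of G1, at 858 and 859.6 CPM in A431 and 316 and 329 CPM in CAL27, EGR3 (5.14-fold) and the ephrin receptor EPHA4 at 27.2 and 33.3 CPM in A431 and 0.389 and 0.454 CPM in CAL27. Of other receptor kinases and ligands, 18 of 48 were higher and 21 lower. NTRK2, the receptor of BDNF, measured 0.243 and 0.097 CPM in A431 and 34.7 and 33.6 CPM in CAL27. FGFR3 measured 15.4 and 16.4 CPM in A431 and 89 and 92.9 CPM in CAL27, whereas PTK7, a WNT co-receptor, measured 719 and 728 CPM in A431 and 129.5 and 143 CPM in CAL27.

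Of 45 RAS, PI3K and mTOR components, 13 were higher in CAL27 and 22 lower. The insulin receptor substrate IRS1 measured 28.2 and 28.2 CPM in A431 and 223 and 228 CPM in CAL27 and the kinase SGK1 20.3 and 16 CPM in A431 and 176 and 188 CPM in CAL27. PIK3R3, a regulatory subunit of PI3K, was 8.63-fold higher. The AKT phosphatase PHLPP1 was 4.52-fold lower in CAL27. SESN3, a sestrin that restrains mTOR, was at 0 in A431 and at 7.71 and 6.02 CPM in CAL27. The list's median was -0.17.

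TGF-beta and BMP signals pass through receptor SMADs to SMAD4, the partner that all of them share. BMP signals switch on ID genes and the inhibitory SMADs. SMAD4 measured 64.7 and 59.1 CPM in A431 and 6.71 and 7.55 CPM in CAL27 (log2 difference -3.11, SE 0.098, edgeR adjusted p = 2.7e-14), with no overlap. Of the 51 tested members of the pathway, 28 were lower and 15 higher in CAL27, with a median log2 difference of -0.50. All 4 ID genes were lower: ID1 measured 531 and 481 CPM in A431 and 135 and 135 CPM in CAL27. ID4 measured 29.9 and 25.2 CPM in A431 and 0.185 and 0.121 CPM in CAL27. ID2 and ID3 were 14.4-fold and 3.07-fold lower. The inhibitory SMAD6 and SMAD7 were 6.44-fold and 3.51-fold lower, and ATOH8, another BMP-induced gene, measured 32.8 and 33.1 CPM in A431 and 0.519 and 0.469 CPM in CAL27 (log2 difference -6.06, SE 0.2, edgeR adjusted p = 2.66e-13). The co-receptor TGFBR3 measured 41.1 and 44.7 CPM in A431 and 0 and 0.333 CPM in CAL27, and BMPR1B was 9.88-fold lower.

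Several secreted ligands and a trap were higher in CAL27. INHBA, the activin A subunit, measured 0.904 and 0.815 CPM in A431 and 63.9 and 71.9 CPM in CAL27 (log2 difference 6.30, SE 0.17, edgeR adjusted p = 4.23e-15), and follistatin (FST), which binds activin, measured 15.9 and 13.4 CPM in A431 and 249.8 and 248 CPM in CAL27 (log2 difference 4.09, SE 0.072, edgeR adjusted p = 1.41e-17). BMP2 was 6.2-fold higher, and BMP4 was at 0 in A431 and at 3.85 and 3.27 CPM in CAL27. TGFB1 was 3.96-fold lower in CAL27 and TGFB2 2.52-fold higher. The SMAD4 reads in CAL27 were few and not absent, and 3' counts do not show whether the transcript is whole.

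Other developmental pathways showed single large differences. In the WNT list 16 of 46 members were higher and 13 lower: the ligand WNT5A measured 0.0348 and 0 CPM in A431 and 14.5 and 16.7 CPM in CAL27, and the receptors FZD10 and FZD3 were 29.8-fold and 6.88-fold lower in CAL27. In the NOTCH list 17 of 35 were higher and 8 lower. NOTCH1, the main squamous receptor, measured 65 and 69.1 CPM in A431 and 232 and 212 CPM in CAL27 (log2 difference 1.73, SE 0.064, edgeR adjusted p = 2.69e-13), and the feedback gene NRARP and the glycosyltransferase LFNG were 6.72-fold and 18.9-fold higher in CAL27. The target HES1 was 1.44-fold lower. Of 32 Hippo components and YAP targets, 19 were higher in CAL27 and 8 lower, with CCN2 at 8.15 and 6.38 CPM in A431 and 140.2 and 155 CPM in CAL27, CCN1 3.61-fold higher and YAP1 2-fold higher, against VGLL1 at 41.4 and 40.8 CPM in A431 and 0.259 and 0.484 CPM in CAL27. Of 12 hedgehog genes, 5 were higher and 4 lower in CAL27. The transducer SMO measured 3.72 and 4.23 CPM in A431 and 68.2 and 72.5 CPM in CAL27. The effector GLI3 measured 0.712 and 0.853 CPM in A431 and 55.3 and 54.2 CPM in CAL27, while the target PTCH1 was not called (edgeR adjusted p = 0.985).

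Alarm proteins of stressed keratinocytes had the largest median difference of all the lists with at least 10 tested genes: 15 of 20 were higher and 3 lower, with a median log2 difference of 2.22. S100A8 and S100A9, the subunits of calprotectin, were both higher. S100A8 measured 0.626 and 0.504 CPM in A431 and 101 and 124 CPM in CAL27. S100A9 measured 10.3 and 13 CPM in A431 and 566 and 633 CPM in CAL27 (log2 difference 5.69, SE 0.11, edgeR adjusted p = 2.88e-17). S100A7, or psoriasin, measured 0.417 and 0.272 CPM in A431 and 77.5 and 90.1 CPM in CAL27, and PI3, an elastase inhibitor, 0.417 and 0.116 CPM in A431 and 67.8 and 66.1 CPM in CAL27. IL1A and IL1B were 4.51-fold and 6.96-fold higher. Their receptor antagonist IL1RN was on the other side, at 263 and 248 CPM in A431 and 12.7 and 13.6 CPM in CAL27 (log2 difference -4.28, SE 0.077, edgeR adjusted p = 1.96e-17). IL36RN and KRT6B were the remaining members lower in CAL27, by 2.21-fold and 2-fold. KRT6A, KRT6B and KRT6C are close copies, so that reads could be lost or pass between them.

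Of 69 chemokines, cytokines and other NF-kB genes, 44 were higher and 11 lower in CAL27, with a median log2 difference of 1.2. CXCL8 and CXCL1, which attract neutrophils, were near 0 in A431. CXCL8 measured 0.539 and 0.155 CPM in A431 and 147 and 168 CPM in CAL27. CXCL1 measured 0.382 and 0.388 CPM in A431 and 110.4 and 128 CPM in CAL27 (log2 difference 8.27, SE 0.15, edgeR adjusted p = 2.28e-17). CCL2, IL6 and TNF were at 0 in A431. In CAL27, CCL2 measured 34.3 and 35.3 CPM, IL6 measured 6.84 and 8.9 CPM and TNF measured 6.59 and 6.93 CPM. NFKBIA, the inhibitor that NF-kB itself induces, measured 69.6 and 65.7 CPM in A431 and 163 and 172 CPM in CAL27. A second feedback gene, TNFAIP3, measured 12 and 11.5 CPM in A431 and 113 and 129 CPM in CAL27 (log2 difference 3.36, SE 0.076, edgeR adjusted p = 3.19e-16). BIRC3 and ICAM1 were 7.14-fold and 11.3-fold higher. Of the exceptions, the receptors TNFRSF21 and TNFRSF1A were 3.63-fold and 1.9-fold lower in CAL27. For CXCL8, CXCL1 and CCL2, both A431 libraries were under 1 CPM and both CAL27 libraries above 10 CPM.

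The sequence before the start of these genes could be read for 36 list members with a single start in RefSeq (GRCh38.p14). A form of the NF-kB site, GGG then any 2 bases then TTTCC, was searched on both strands of the 250 bases before the start. It stood in 12 of 36 promoters (33.3%), against 174 of 8764 over all tested genes with 1 start (1.99%). Of the 12 members with the motif, 10 were higher in CAL27, 1 was lower and 1 was not called. Of the 24 without it, 14 were higher, 5 lower and 5 not called. A match is a description of these letters and not a measured binding site, and the motifs were chosen after the differences were known. The list was made to hold NF-kB genes, so its share of matches describes the list and not these lines. Shown are CXCL1 (chr4:73869143-73869392 on the plus strand), CCL20 (chr2:227813592-227813841 on the plus strand; 0.0695 and 0.0388 CPM in A431 and 20.1 and 23.8 CPM in CAL27) and TNFAIP3 (chr6:137867009-137867258 on the plus strand), each 5' to 3' towards the gene's start with the motif in capitals.
CXCL1: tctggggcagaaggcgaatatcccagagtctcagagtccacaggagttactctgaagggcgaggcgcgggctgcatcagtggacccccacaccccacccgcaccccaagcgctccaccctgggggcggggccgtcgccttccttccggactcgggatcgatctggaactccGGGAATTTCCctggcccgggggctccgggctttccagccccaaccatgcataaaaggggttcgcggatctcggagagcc
CCL20: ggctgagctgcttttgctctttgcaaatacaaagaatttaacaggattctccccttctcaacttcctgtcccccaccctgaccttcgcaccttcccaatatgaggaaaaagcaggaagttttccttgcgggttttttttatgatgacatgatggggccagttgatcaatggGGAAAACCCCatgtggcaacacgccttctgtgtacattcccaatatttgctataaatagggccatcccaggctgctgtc
TNFAIP3: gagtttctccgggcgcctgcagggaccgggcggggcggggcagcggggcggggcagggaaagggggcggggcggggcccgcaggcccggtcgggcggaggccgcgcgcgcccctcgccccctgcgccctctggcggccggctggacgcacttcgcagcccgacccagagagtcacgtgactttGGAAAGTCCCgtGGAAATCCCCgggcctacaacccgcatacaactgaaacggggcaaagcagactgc

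Interferon-stimulated genes had the largest share of members higher in CAL27 of all the lists with at least 10 tested genes: 37 of 43 were higher in CAL27, 3 lower and 3 not called, with a median log2 difference of 1.5. ISG15, a ubiquitin-like protein, measured 43.9 and 37.9 CPM in A431 and 207 and 219 CPM in CAL27 (log2 difference 2.38, SE 0.11, edgeR adjusted p = 8.15e-12), and the antiviral GTPase MX1 was 5.93-fold higher (log2 difference 2.57, SE 0.058, edgeR adjusted p = 2.97e-16). RSAD2, MX2, EPSTI1 and IFITM1 were 11.3-fold, 8.9-fold, 10.2-fold and 8.68-fold higher. IFITM1, IFITM2 and IFITM3 are close relatives, and 32% of the exonic bases of IFITM1 lie under another gene. The members lower in CAL27 were GBP3, TRIM22 and SAMD9, by 1.9-fold, 1.9-fold and 1.13-fold, and SAMD9 was not called under total-count scaling (adjusted p = 0.08). In no tested interferon-stimulated gene was the level 2-fold or more lower.

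A form of the interferon-stimulated response element, GAAA, any 2 bases and GAAA, was searched on both strands of their promoters. It stood in 17 of 24 members with 1 start (70.8%), against 217 of 8764 (2.48%) over all tested genes with 1 start. Of the 17, 15 were higher in CAL27, 1 was lower (SAMD9) and 1 was not called (PARP14). Of the 7 without it, 5 were higher and 1 lower. The list was made of genes known to respond to interferon, so its share of matches describes the list and not these lines. A match is not a measured binding site. Shown are ISG15 (chr1:1013247-1013496 on the plus strand) and IFIT1 (chr10:89392373-89392622 on the plus strand; 46.9 and 49.3 CPM in A431 and 161 and 162 CPM in CAL27), with the motif in capitals, where overlapping matches run together.
ISG15: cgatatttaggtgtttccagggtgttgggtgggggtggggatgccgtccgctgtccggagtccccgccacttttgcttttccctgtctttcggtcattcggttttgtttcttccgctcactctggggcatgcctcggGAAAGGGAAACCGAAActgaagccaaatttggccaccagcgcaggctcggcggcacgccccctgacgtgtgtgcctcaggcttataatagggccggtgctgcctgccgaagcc
IFIT1: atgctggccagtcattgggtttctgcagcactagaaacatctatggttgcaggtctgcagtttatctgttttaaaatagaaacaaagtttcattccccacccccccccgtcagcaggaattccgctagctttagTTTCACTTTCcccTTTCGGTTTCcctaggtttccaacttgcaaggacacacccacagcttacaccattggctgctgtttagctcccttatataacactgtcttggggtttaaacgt

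Of 31 sensor and interferon components, 16 were higher and 9 lower in CAL27: TLR2 measured 0.278 and 0.582 CPM in A431 and 11.9 and 14.1 CPM in CAL27 and the inflammatory caspases CASP1 and CASP4 were 3.21-fold and 3.53-fold higher, whereas STING1, which relays cytosolic DNA, measured 39.5 and 38.9 CPM in A431 and 13.1 and 12.3 CPM in CAL27 and TLR3 was 2.69-fold lower. In antigen presentation, 16 of 36 were higher and 14 lower. B2M was 1.47-fold lower in CAL27, whereas the class II chain HLA-DRA measured 36.3 and 35.7 CPM in A431 and 124 and 139 CPM in CAL27 and its chaperone CD74 97.6 and 99.2 CPM in A431 and 428 and 419 CPM in CAL27. The peptide trimming enzyme ERAP2 measured 5.8 and 7.39 CPM in A431 and 185 and 192 CPM in CAL27. HLA genes vary in sequence between lines, which can change how many reads align.

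**Figure D2:**
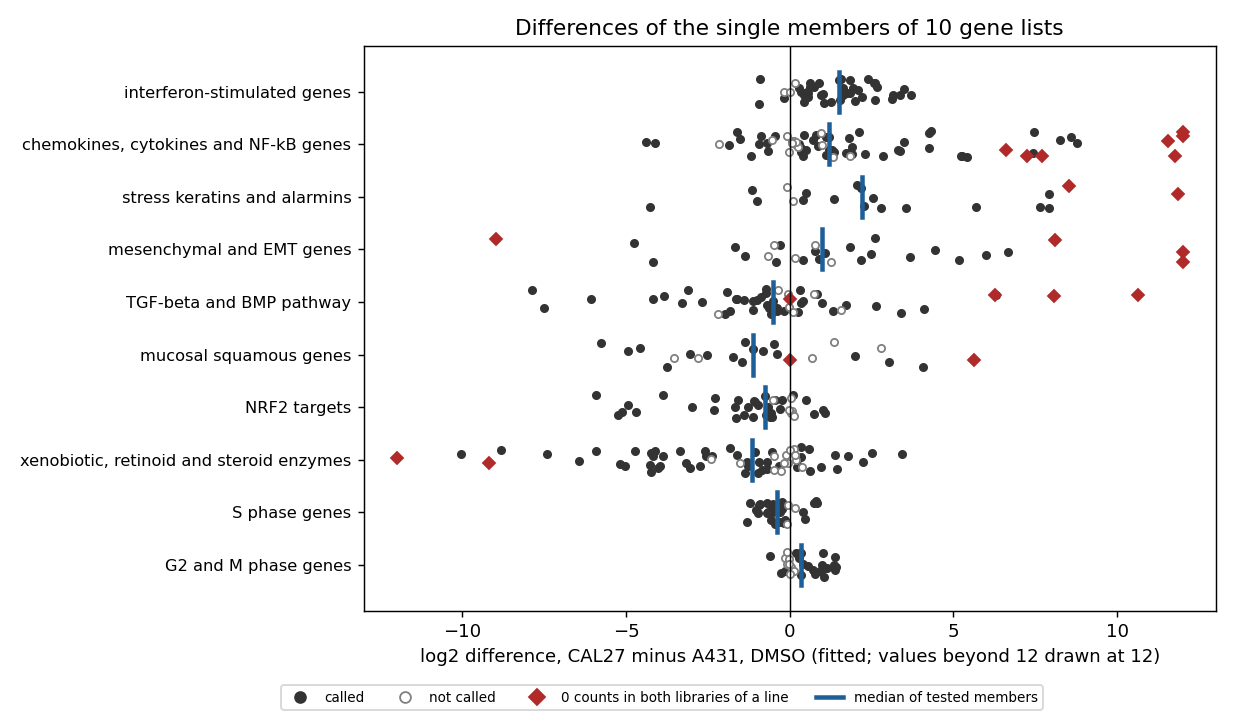
Fitted log2 differences (CAL27 minus A431, DMSO) of the tested members of 10 gene lists, 1 point per gene, with the list's median as a bar; diamonds mark genes with 0 counts in both libraries of a line, whose fitted position is not a bound. The interferon, chemokine and alarmin lists lie mostly to the right of 0, and the mucosal, NRF2 and xenobiotic lists mostly to the left.

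Genes that handle retinoids, steroids and foreign compounds were mostly higher in A431. Retinol is taken up through STRA6, oxidised by ALDH1A enzymes to retinoic acid, carried by CRABP2 to its receptors, and removed by CYP26 enzymes, whose genes retinoic acid itself switches on. Of the 64 tested members of the list, 38 were lower and 13 higher in CAL27 (median log2 difference -1.16), and 31 were lower by 2-fold or more. ALDH1A1 measured 163 and 159.9 CPM in A431 and 0.185 and 0.121 CPM in CAL27 (log2 difference -10.05, SE 0.14, edgeR adjusted p = 7.53e-19), and ALDH1A3 measured 354 and 340.3 CPM in A431 and 14.4 and 12.1 CPM in CAL27 (log2 difference -4.72, SE 0.079, edgeR adjusted p = 1.03e-17), although 35.8% of its exonic bases are shared. The A431 libraries lay at least 20 times above those of CAL27 for both.

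Uptake, carriage and removal each had members lower in CAL27. STRA6 measured 69.6 and 70.4 CPM in A431 and 3.7 and 3.75 CPM in CAL27. The carrier CRABP2 measured 241 and 239.9 CPM in A431 and 11.3 and 14 CPM in CAL27 (log2 difference -4.24, SE 0.082, edgeR adjusted p = 5.36e-17), and the receptors RARB and RARG were 5.16-fold and 2.07-fold lower, while RARA was not called (edgeR adjusted p = 0.939). Of genes known to be induced by retinoic acid, CYP26A1 measured 9.07 and 7.91 CPM in A431 and 0.037 and 0 CPM in CAL27. DHRS3 measured 608 and 588 CPM in A431 and 33.8 and 40.2 CPM in CAL27. All A431 values of these lay above all CAL27 values, as did those of RARRES1 (36.3-fold lower). LRAT, which stores retinol as esters, and the retinol dehydrogenase RDH10 went the other way, 4.68-fold and 1.26-fold higher in CAL27, RDH10 with no call when CAL27 replicate 2 was left out (adjusted p = 0.0593).

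The steroid dehydrogenase HSD17B2 measured 9.56 and 10.9 CPM in A431 and 0 and 0.106 CPM in CAL27, and the vitamin D hydroxylases CYP27B1 and CYP24A1 were 32.8-fold and 17.3-fold lower in CAL27. Higher in CAL27 were the aryl hydrocarbon receptor AHR, at 62.7 and 59.7 CPM in A431 and 205 and 212 CPM in CAL27, its target TIPARP (2.62-fold) and the epoxygenase CYP2J2 (5.7-fold). CYP1A1, the standard target of AHR, was not called (edgeR adjusted p = 0.864; 2.05 and 2.17 CPM in A431 and 2.07 and 1.85 CPM in CAL27).

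NRF2, encoded by NFE2L2, switches on genes that neutralise oxidants and electrophiles and is held in check by KEAP1. Of 38 targets and regulators, 27 were lower and 5 higher in CAL27, with a median log2 difference of -0.74. The aldo-keto reductase AKR1C1 measured 106 and 102 CPM in A431 and 3.15 and 2.86 CPM in CAL27, and its relatives AKR1C2 and AKR1C3 were 26.1-fold and 30.3-fold lower. They are close copies in 1 cluster, so that reads could be lost or split among them, but all 3 had the same direction. The cluster lies in a run of neighbouring genes on chromosome 10, from DIP2C to TUBAL3. In that run 12 of 15 genes were lower in CAL27 and 2 higher, with a median log2 difference of -1.67. The part of position was not tested. GPX2, a glutathione peroxidase, measured 175 and 166 CPM in A431 and 4.26 and 4.69 CPM in CAL27 (log2 difference -5.25, SE 0.09, edgeR adjusted p = 1.22e-17), and NQO1 measured 494 and 459 CPM in A431 and 152 and 149.7 CPM in CAL27 (log2 difference -1.66, SE 0.042, edgeR adjusted p = 1.68e-15). HMOX1, ALDH3A1 and the cystine carrier SLC7A11 were 7.89-fold, 14.5-fold and 4.87-fold lower. The enzymes of glutathione synthesis GCLC and GCLM were lower by 3.15-fold and 2.41-fold. GCLC lies in a run on chromosome 6, from ADGRF5 to BEND6, where 19 of 25 genes were lower in CAL27 and 2 higher.

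Not every target followed. TXNRD1 stood at 311 and 316 CPM in A431 and 318 and 320.0 CPM in CAL27 and was not called (edgeR adjusted p = 0.514, but 0.00903 under total-count scaling, with a log2 difference of 0.10), and AKR1B10 was 2.1-fold higher in CAL27. NFE2L2 itself was 1.37-fold lower and KEAP1 1.43-fold higher. Among 37 glutathione and thiol genes, some shared with the NRF2 list, 23 were lower and 8 higher. CHAC1, which degrades glutathione, and GSTM1 were 7.24-fold and 6.44-fold lower, and GSTA4 measured 14.6 and 15.5 CPM in A431 and 0 and 0.0303 CPM in CAL27. GSTA4 lies in the same chromosome 6 run as GCLC.

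Glycolysis and TCA cycle genes went both ways, with large differences at single steps. Of 40 glycolysis and lactate genes, 18 were higher and 16 lower (median 0.07), and the counts for the TCA cycle were 15 and 13 of 36. The glucose transporter SLC2A6 measured 1.81 and 0.853 CPM in A431 and 47 and 54.1 CPM in CAL27, hexokinase 2 (HK2) was 3.49-fold higher and pyruvate dehydrogenase kinase PDK1 and phosphatase PDP1 were 5.47-fold and 8.86-fold higher in CAL27. PCK2, the mitochondrial carboxykinase, measured 155 and 186 CPM in A431 and 20.9 and 21.2 CPM in CAL27 (log2 difference -3.01, SE 0.084, edgeR adjusted p = 5.92e-15), and OGDH, a TCA cycle dehydrogenase, measured 85.3 and 75.6 CPM in A431 and 405 and 402 CPM in CAL27. Of 30 hypoxia genes, 16 were higher in CAL27 and 7 lower: BNIP3, EGLN3 and CA9 were 11.5-fold, 81.5-fold and 7.03-fold higher, HIF1A measured 230.4 and 225 CPM in A431 and 696 and 688 CPM in CAL27, and CA12 was 17.7-fold lower.

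Mitochondrially encoded RNA was lower in CAL27, with 12 of 15 genes lower, none higher (1 under total-count scaling) and a median log2 difference of -0.62. The mitochondrial share of counts was 2.69% and 3.15% in A431 and 1.77% and 1.56% in CAL27. Of the 15, the ribosomal RNAs MT-RNR2 and MT-RNR1 differed most, MT-RNR2 measuring 4785 and 5348 CPM in A431 and 699 and 704 CPM in CAL27, while MT-CO3 and MT-ATP6 differed by 1.54-fold and 1.47-fold. Nuclear respiratory chain genes split 26 higher to 19 lower of 71, with a median of 0.05. In bulk RNA, a lower level in every cell and a lower level in only some of the cells cannot be told apart.

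Genes of fat breakdown were mostly higher in A431. Of 39 fatty acid oxidation and peroxisome genes, 24 were lower in CAL27 and 9 higher: PPARG, the nuclear receptor of fat storage, measured 29.1 and 25.9 CPM in A431 and 1.72 and 2.72 CPM in CAL27, and HADH and EHHADH were 2.69-fold and 3.55-fold lower. CPT1A, the entry step into mitochondria, was 5.13-fold higher in CAL27. Of 45 lipid synthesis genes, 21 were lower and 11 higher, with ACSL1 and PLIN2 5.11-fold and 21-fold lower and the lipins LPIN1 and LPIN2 7.98-fold and 55.9-fold higher. Cholesterol genes split 15 to 15 of 34: DHCR7 was 2.9-fold higher and IDI1 2.15-fold lower.

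Of 53 serine, one-carbon and nucleotide genes, 25 were lower in CAL27 and 17 higher. PHGDH, the first enzyme of serine synthesis, measured 477 and 519.8 CPM in A431 and 133 and 134 CPM in CAL27. PSPH, the last, measured 182 and 188 CPM in A431 and 69.3 and 74.8 CPM in CAL27. Of 43 genes of amino acid, polyamine and NAD metabolism, 14 were higher and 18 lower. Among enzymes of the kynurenine route of tryptophan breakdown, KYNU measured 24.8 and 23.7 CPM in A431 and 220.0 and 233 CPM in CAL27 (log2 difference 3.22, SE 0.062, edgeR adjusted p = 5.05e-17). KMO measured 0.174 and 0.504 CPM in A431 and 20.8 and 18.7 CPM in CAL27, and IDO1 was 2.16-fold higher, whereas TDO2, at 2 and 2.37 CPM in A431 and 0.185 and 0.0908 CPM in CAL27, and AFMID, 1.91-fold lower, went the other way. The polyamine enzyme SAT1 was 6.8-fold higher, whereas BCAT1, which transaminates branched amino acids, was 2.52-fold lower. The prostaglandin synthase PTGES and the prostaglandin dehydrogenase HPGD were 3.47-fold and 9.56-fold lower in CAL27, and the receptors PTGER2 and PTGER4 15.5-fold and 4.46-fold higher.

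**Figure D3:**
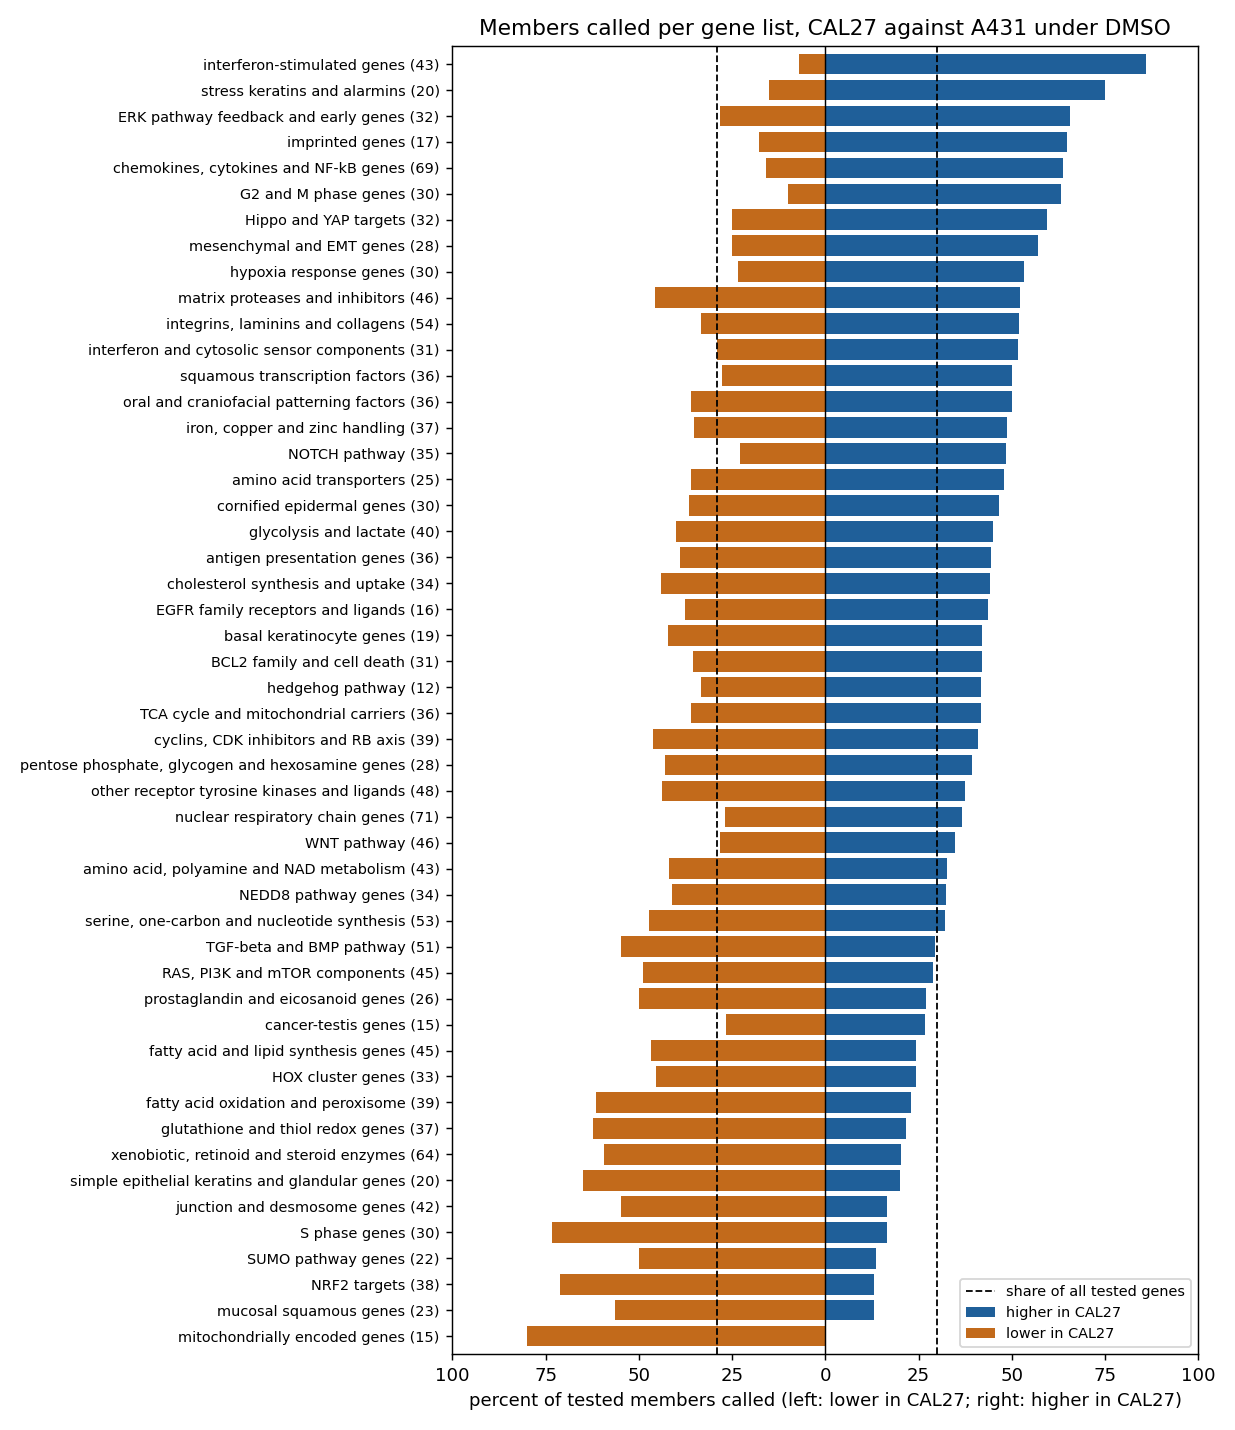
Percent of the tested members of each gene list shown (number in brackets) called higher (blue, right) or lower (orange, left) in CAL27 at an adjusted p under 0.05; dashed lines mark the 29.9% and 29% of all tested genes. Protein-coding genes alone were called more often than all tested genes. The interferon list reaches farthest to the right and the mitochondrially encoded list farthest to the left.

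S phase genes and mitotic genes differed in opposite directions. Of 30 S phase genes, 22 were lower in CAL27 and 5 higher (median log2 difference -0.37), with PCNA at 677 and 677 CPM in A431 and 272 and 273 CPM in CAL27 (log2 difference -1.31, SE 0.043, edgeR adjusted p = 4.48e-14) and the replicative helicase subunits MCM2 and MCM3 2.31-fold and 2.06-fold lower. Of 30 G2 and M phase genes, 19 were higher and 3 lower (median 0.33), with cyclin B1 (CCNB1) at 180.0 and 159 CPM in A431 and 456 and 446 CPM in CAL27 (log2 difference 1.41, SE 0.061, edgeR adjusted p = 2.09e-12), CENPF and MKI67 2.62-fold and 2.54-fold higher. CCNA2, KIF11 and TPX2 were the members lower in CAL27, by 1.5-fold, 1.21-fold and 1.11-fold, and TPX2 was not called under total-count scaling (adjusted p = 0.166) or without CAL27 replicate 2 (0.0924). The share of cells in each phase was not measured.

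The CDK inhibitors of the INK4 locus were higher in CAL27: CDKN2A measured 2.22 and 2.21 CPM in A431 and 24 and 24.5 CPM in CAL27 (log2 difference 3.45, SE 0.12, edgeR adjusted p = 1.58e-13) and CDKN2B 0 and 0.0388 CPM in A431 and 24.3 and 23.6 CPM in CAL27. CDKN2A shares 21.9% of its exonic bases with another gene, and its 3' reads do not separate its p16 and ARF transcripts. CDKN2C went the other way, 3.96-fold lower in CAL27, and RB1 was 2.04-fold higher. CDKN1A, a further CDK inhibitor, was 1.31-fold lower, BTG2 7.04-fold lower, AEN 3.1-fold higher and PLK2 2.54-fold higher. Of 31 cell death genes, CFLAR and BIRC2 were 4.01-fold and 2.96-fold higher and BIK and BCL2L1 2.53-fold and 2.12-fold lower.

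The machinery of NEDD8 itself, the target of the study's inhibitor, had differences in both directions. Of 34 genes, 11 were higher and 14 lower in CAL27, and the median log2 difference was -0.06, and 0.02 under total-count scaling. NEDD8 measured 48.3 and 47.9 CPM in A431 and 38.8 and 39.5 CPM in CAL27 (log2 difference -0.30, SE 0.068, edgeR adjusted p = 0.0011). The subunits of its activating enzyme, NAE1 and UBA3, were not called (edgeR adjusted p = 0.693 and 0.976). NAE1 measured 66.3 and 69.9 CPM in A431 and 66.8 and 66.4 CPM in CAL27. UBA3 measured 35.2 and 34.3 CPM in A431 and 35.5 and 33.9 CPM in CAL27. The conjugating enzyme UBE2M was 1.28-fold lower and UBE2F 1.69-fold higher. The largest differences were those of CUL9 and DCUN1D5. CUL9, a cullin-like protein, measured 56.1 and 52.8 CPM in A431 and 15.2 and 13.2 CPM in CAL27. DCUN1D5, a co-ligase, measured 31 and 31.6 CPM in A431 and 94.3 and 93.2 CPM in CAL27. Both genes lie in runs of neighbouring genes described below. Of 22 SUMO pathway genes, 11 were lower and 3 higher: SUMO2 measured 414 and 402 CPM in A431 and 253 and 243 CPM in CAL27 (log2 difference -0.72, SE 0.044, edgeR adjusted p = 1.89e-10), SUMO3 was not called (edgeR adjusted p = 0.721), and the activating subunit UBA2 was 1.83-fold higher.

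Differences also ran along chromosomes. Over 15 neighbouring protein-coding genes, the median log2 difference reached 1.5 in either direction in 23 regions. With windows of 25 genes there were 6 regions. The values that chose these regions came from the DMSO libraries and are given as a description. The longest run of genes lay on chromosome 7 from RALA to EGFR (39623572 to 55211628, GRCh38), where 38 of 48 genes were higher in CAL27 and 1 was lower, with a median log2 difference of 1.74. The 1 lower gene was EGFR itself, at the end of the run. INHBA and GLI3, described above, lie within it. In the NEDD8i libraries, which did not enter the choice, 41 of the 48 were higher in CAL27 and 2 lower (median 1.71).

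On chromosome 11, 2 runs lay close together. From CCDC89 to KDM4D (85683848 to 94999519), 24 of 29 genes were higher in CAL27 and 1 lower, and from JRKL to SLC35F2 (96390013 to 107928293), 20 of 29 were higher and 4 lower. The second holds the metalloprotease cluster with MMP1, MMP10 and MMP13, as well as YAP1, BIRC2, BIRC3, CASP1, CASP4 and DCUN1D5, all of them higher in CAL27, and also MMP7, which was 1.33-fold lower. A run in the opposite direction lay on chromosome 8 from DOCK5 to GSR (25184689 to 30727846), where 24 of 31 genes were lower in CAL27 and 4 higher (median -1.55), among them the WNT receptor FZD3, the chaperone CLU and the epoxide hydrolase EPHX2, lower by 6.88-fold, 41.9-fold and 6.66-fold. The other runs included gene family clusters, among them S100 and SPRR genes on chromosome 1, protocadherins on chromosome 5 and UGT1A genes on chromosome 2. Other genes named above also lie in runs. CUL9 and PTK7 lie on chromosome 6 between KLHDC3 and GTPBP2, where 17 of 20 genes were lower in CAL27 and 0 higher. NOTCH1 lies in a run on chromosome 9 (13 of 17 genes higher, 1 lower). MX1 and MX2 lie in a run on chromosome 21 (11 of 16 higher, 3 lower). IDI1 lies in the chromosome 10 run with AKR1C1, and MCM3 and TNFRSF21 in the chromosome 6 run with GCLC. Copy number was not measured, and its part in these runs was not tested.

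The lowest window medians, -8.03 and -6.01, were in zinc finger clusters on chromosome 19. Of 175 zinc finger genes tested on that chromosome, 52 were lower and 56 higher in CAL27, but 27 were lower by 8-fold or more against 10 higher by as much. Over all tested genes, 3.98% were lower and 7% higher by 8-fold or more. Of those 27, 24 fell into 3 regions. From CAPNS1 to SPINT2 (36139953 to 38292615), 10 of 16 zinc finger genes were lower by 8-fold or more and 5 were higher. From GARIN5A to ZNF841 (50466788 to 52095765) it was 5 of 9, with none higher, and from ZNF766 to MYADM (52269587 to 53876435) it was 9 of 18, with 1 higher. ZNF260 measured 9.11 and 11 CPM in A431 and 0 and 0 CPM in CAL27, at least 403-fold lower in CAL27. ZNF160 measured 6.53 and 7.47 CPM in A431 and 0 and 0 CPM in CAL27, at least 280.2-fold lower. ZNF611 measured 5.04 and 4.81 CPM in A431 and 0 and 0 CPM in CAL27. All 3 were thus at 0 in both CAL27 libraries and not in A431. In another region, farther towards the start of the chromosome (19516227 to 23687220), 6 of 8 zinc finger genes were higher in CAL27 and none was lower. In the NEDD8i libraries 10, 7 and 16 zinc finger genes of the 3 low regions were called lower in CAL27 and 5, 0 and 0 higher.

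CpG, the pair of letters at which DNA is methylated, was counted before the starts of these genes. Of the 27 zinc finger genes, 15 had a single start in RefSeq. The 250 bases before it held a median of 17 CpG, close to the 16.5 of the 132 zinc finger genes of chromosome 19 with 1 start. An observed-over-expected CpG ratio of at least 0.6 was found in 93.3% of the 15 and 78.8% of the 132. The difference between these shares was not tested. The 250 bases before the starts of ZNF611 and ZNF808, both in the third region, were 82.2% identical over an alignment of 264 positions. ZNF808 measured 4.8 and 4.11 CPM in A431 and 0.037 and 0.0151 CPM in CAL27. Both start regions are shown because the genes were low together (chr19:52735045-52735294 on the minus strand and chr19:52527418-52527667 on the plus strand), 5' to 3' with every CpG in capitals. Methylation was not measured.
ZNF611: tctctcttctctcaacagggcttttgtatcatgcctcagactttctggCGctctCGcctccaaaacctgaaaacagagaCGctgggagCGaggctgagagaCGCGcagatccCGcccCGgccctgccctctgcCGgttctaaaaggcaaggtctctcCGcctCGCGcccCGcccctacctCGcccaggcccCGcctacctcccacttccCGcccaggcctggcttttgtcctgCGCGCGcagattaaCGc
ZNF808: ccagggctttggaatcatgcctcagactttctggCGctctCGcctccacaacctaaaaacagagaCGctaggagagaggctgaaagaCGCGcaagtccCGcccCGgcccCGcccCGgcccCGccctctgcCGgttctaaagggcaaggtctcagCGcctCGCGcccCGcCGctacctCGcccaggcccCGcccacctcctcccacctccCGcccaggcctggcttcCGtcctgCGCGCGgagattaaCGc

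**Figure D4:**
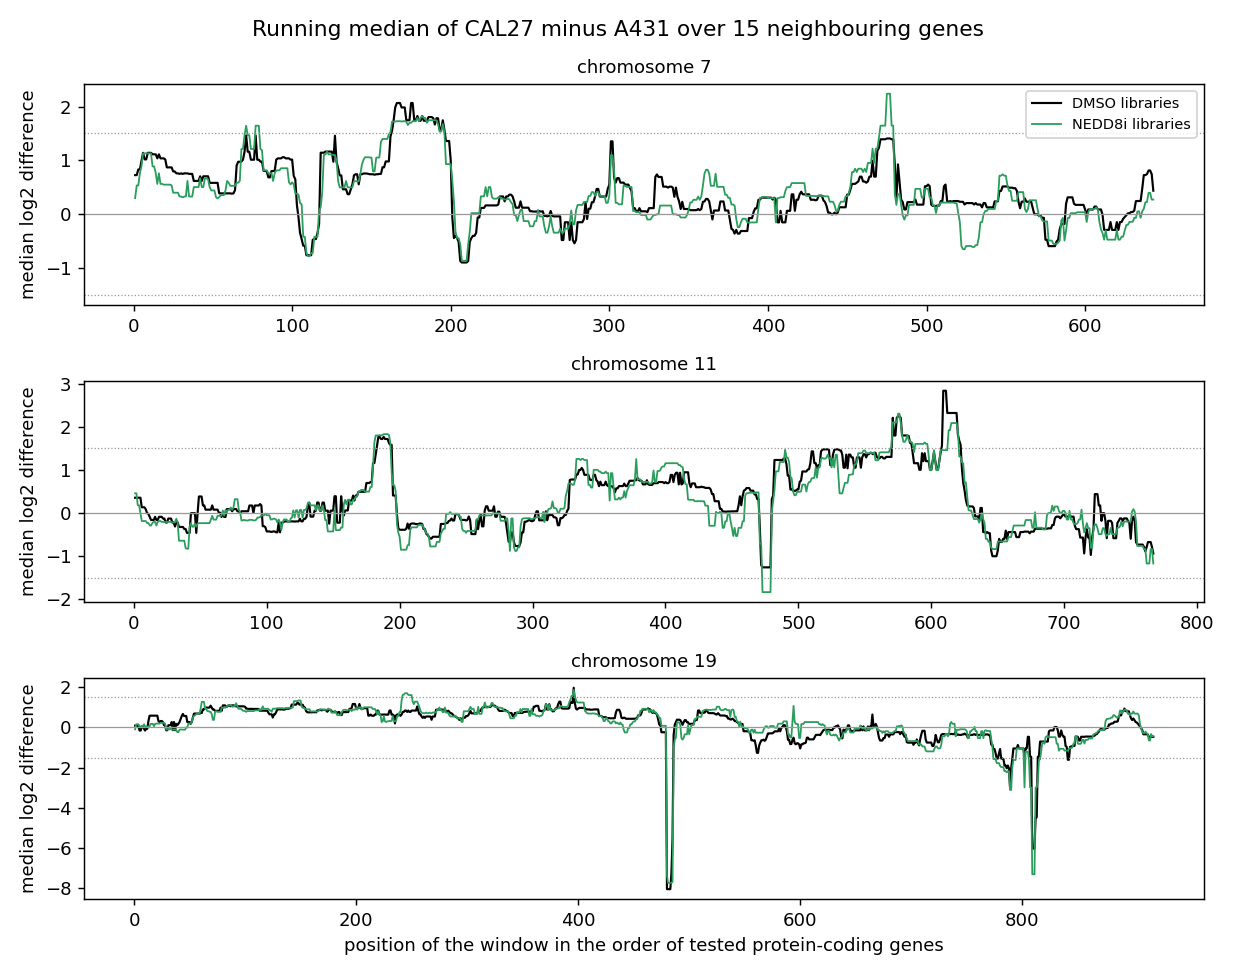
Running median of the log2 difference (CAL27 minus A431) over 15 neighbouring tested protein-coding genes along chromosomes 7, 11 and 19, in the DMSO libraries (black) and the NEDD8i libraries (green); dotted lines mark 1.5 in either direction. The raised runs on chromosomes 7 and 11 and the deep dips on chromosome 19 are seen in both sets of libraries.

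The NEDD8i libraries of the same lines share no library with the DMSO comparison, although all 8 shared 1 estimate of the spread. Between the lines, 11610 genes (62%) were called there. Of the 11045 genes called under DMSO, 8072 (73.1%) were called in the same direction under NEDD8i, 794 (7.19%) in the opposite direction and 2179 were not called. Of the 2057 genes called with 8-fold or more, 1562 kept direction and call, and 9 were called the other way. A test of the change itself called 6369 genes (34%).

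Differences of differentiation genes held in part. KRT4, KRT13, ALDH1A1 and SMAD4 had log2 differences of -4.98, -4.07, -7.83 and -3.81 under NEDD8i, and TNC had 5.68. Of the mucosal genes, all 13 called lower in CAL27 under DMSO were called lower again, and of the 27 NRF2 genes called lower, 26 were. The list of xenobiotic, retinoid and steroid enzymes kept 36 of 38. Of 28 squamous transcription factors called under DMSO, 8 were called higher again and 9 lower again. Another 9 were called the other way, beside 7.19% of all genes called. The core squamous genes TP63 and KRT14 changed sides, TP63 from 0.89 to -1.19 and KRT14 from 0.26 to -0.14, each with a call in both comparisons and in the test of the change.

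Inflammatory genes were called again in part. Of the 37 interferon-stimulated genes higher in CAL27 under DMSO, 25 were called higher under NEDD8i, and the list's median difference was 0.56 there, beside 1.5 under DMSO. For the chemokine list 30 of 44 were called higher again. Both counts stand beside 73.1% of all genes called under DMSO, which were called in the same direction under NEDD8i. Of the members called under DMSO in either direction, 6 of 40 in the interferon list and 10 of 55 in the chemokine list were called the other way, beside 7.19% of all genes called. The difference for CXCL8 was 1.77 under NEDD8i, beside 8.78. Some genes changed sides, with a call in both comparisons and in the test of the change. TP73 went from 2.71 to -0.60, IL1B from 2.80 to -0.89, NOTCH1 from 1.73 to -0.53 and MYC from 1.40 to -1.45. S phase genes called lower in CAL27 numbered 22 under DMSO and 14 under NEDD8i, where 12 were called higher.

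**Figure D5:**
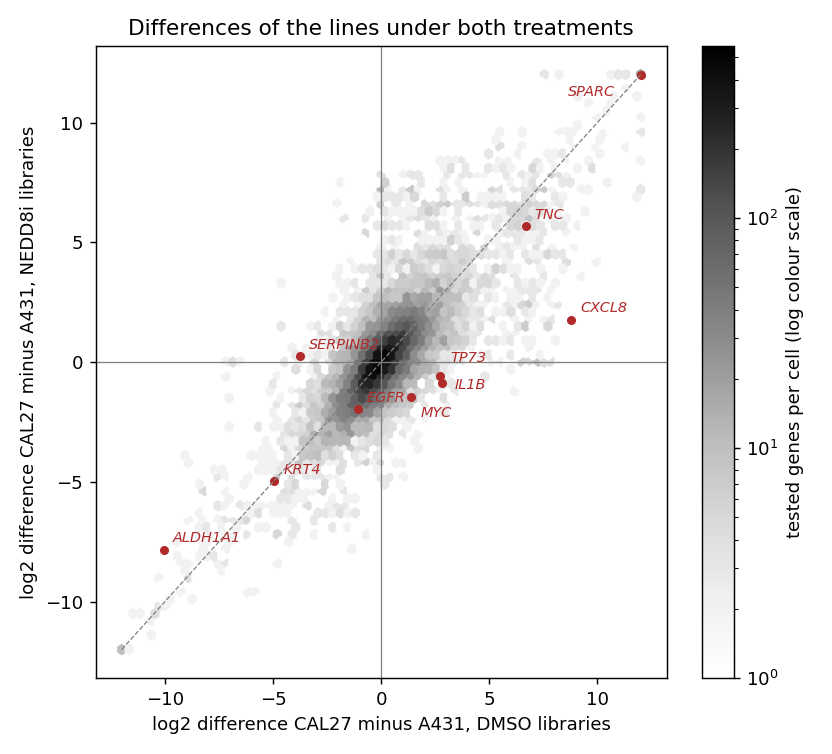
Log2 differences of all 18738 tested genes between the lines in the DMSO libraries (horizontal) and the NEDD8i libraries (vertical), with the number of genes as grey level; values beyond 12 are drawn at 12, and the dashed line marks equal differences. KRT4 lies near the line and CXCL8 far below it, SPARC lies beyond 12 on both axes, and TP73, IL1B and MYC lie below 0 on the vertical axis.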

How the data were processed

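The 8 QuantSeq forward (3') libraries, 2 for each line and treatment, were read as gene counts that the authors made and deposited. STAR and GRCh38 are named in the submitters' processing notes for the alignment, and per the file headers they were counted with featureCounts 2.0.8 over exons of the GENCODE 39 basic annotation. Strand was not used, each mate was counted, and reads that fit several places or genes were dropped. No version of STAR was given in the sources used here.

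All 8 libraries were fitted together with 4 group means in edgeR 4.0.16 (R 4.3.3) after filterByExpr and TMM scaling. The residual degrees of freedom were 4 and the biological coefficient of variation was 0.0852. CPM values use TMM-scaled library sizes, and levels were compared between libraries and not between genes. On simulated counts for the DMSO comparison with 18738 genes, 80 of 100 genes changed 2-fold and 88 of 100 changed 4-fold were called, and 11 of all 179 calls (6.15%) were false. The changed genes were few, were not drawn from those with low counts, and went up and down equally. In the data 58.9% of genes were called, so these shares do not give the recovery or the false calls of the comparison itself.

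The members and the 57 gene lists (1717 of 1935 symbols tested) were chosen with earlier results of these data known. Named were the 15 largest differences in each direction with at least 10 CPM, up to 5 members of each list by size with its defining members and exceptions, members of neighbouring runs, and the 5 genes with most CPM among those at 0 in 1 line. Further list members were chosen after their values were seen, and some genes that the rule names are not reported here. The list medians printed did not change when genes at 0 in a line were placed at their bound. Promoters came from RefSeq (GRCh38.p14). Alternatives were RLE and total-count scaling, other filters, DESeq2 1.42.0, limma-voom (limma 3.58.1), the 4 libraries alone, a replicate block, halved counts, no mitochondrial counts, leaving out each library, and windows of 25 genes.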

Additional observations from a re-analysis of the deposited data

Results flagged for a closer look

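For 15 genes named above the difference between the lines turned round between the DMSO and the NEDD8i libraries, with a call in each and an edgeR adjusted p under 0.05 for the change itself. The change is given as the log2 difference (CAL27 minus A431) under NEDD8i minus that under DMSO.

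TP63 changed by -2.08 (adjusted p = 2.36e-12) and its relative TP73 by -3.31 (9.47e-09). The CDK inhibitor CDKN1A changed by 0.57 (1.19e-05). KRT14 changed by -0.40 (1.12e-05), KRT8 by 1.04 (1.13e-10) and the integrin ITGB4 by -0.65 (6.16e-08).

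Of inflammatory and signalling genes, IL1A changed by -3.22 (2.03e-12), IL1B by -3.69 (6.44e-13), NFKBIA by -2.13 (9.86e-11), NOTCH1 by -2.26 (8.19e-12) and MYC by -2.84 (3.54e-13). HIF1A changed by -2.0 (2.49e-13), the retinol dehydrogenase RDH10 by -1.37 (7.93e-08) and the spindle protein TPX2 by 0.34 (0.000476). AKR1B10, the aldo-keto reductase that was higher in CAL27 under DMSO, changed by -5.97 (2.95e-13) and was lower in CAL27 under NEDD8i. All other named genes with a call in both comparisons either kept their side or were not called in the test of the change.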

How the results depend on the processing

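The number of genes called between the lines under DMSO, 11045, was 11061 with RLE factors, 11083 with total counts, 10732 with DESeq2, 11629 with limma-voom and 11123 with halved counts, and between 9438 and 11131 when 1 library was left out. The share of calls that were higher in CAL27 was 50.7%, and 55.3% with total counts. Of the counts over all genes and over runs, only the number of neighbouring runs, 23 with 15 genes, moved by more than 1.5 times, to 6 with 25 genes; 72 counts of members higher or lower in single lists also moved by more than 1.5 times, 69 of them with a 2-fold threshold and 3 with total counts. With the replicate block 10765 genes were called under DMSO and 11293 under NEDD8i. Same-numbered libraries did not deviate together (correlations from -0.03 to 0.019), so the numbers were not taken to pair the samples.

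Of 6021 values of named genes under alternatives, 5963 kept direction and side of the threshold, 20 lost and 2 gained a call, and 36 changed sign. All changes of sign were in 11 genes with no call in the comparison as reported. The log2 differences that changed sign were, with total counts, 0.0164 for EREG, 0.0601 for ITGA6, 0.00909 for KRT6C, 0.0454 for NAE1, 0.0745 for UBA3 and 0.015 for ZNF766. They were, with at least 1 CPM in both libraries of a group, 0.00806 for ITGA6 and 0.0224 for UBA3, with halved counts 0.00636 for ITGA6 and 0.0199 for UBA3, with the replicate block -0.00135 for PTCH1, with RLE factors 0.00618 for UBA3, with no filter 0.0014 for UBA3, with DESeq2 0.00627 for UBA3, with the 4 libraries alone 0.000438 for UBA3. With 1 library left out in turn, the log2 difference ranged from -0.465 to 0.119 for FLG, -0.0473 to 0.00548 for ITGA6, -0.245 to 0.097 for KRT6C, -0.0459 to 0.0495 for PARP14, -0.09 to 0.0865 for PTCH1, -0.0695 to 0.0861 for RARA, -0.00809 to 0.0499 for SUMO3, -0.0422 to 0.0314 for UBA3 and -0.23 to 0.0800 for ZNF766. With 2 libraries a group, a lone remaining library is assumed to vary like the others, and a level under 0.0275 CPM in A431 or 0.025 CPM in CAL27 could not be told from 0.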
